A study of Rattus norvegicus with 18 samples.

Results

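The elastic fibre and fibronectin genes of the perinatal rat lung are described here. They comprise 9 genes, Eln, Fbn1, Fbn2, Fbln1, Fbln5, Lox, Loxl1, Mfap4 and Fn1, and every probe set annotated to 1 of them and to no other gene was taken. These were 13 probe sets of 31042 on the array, and the 9 genes stand among 11590 genes that had a probe set bright enough to be tested. All 13 probe sets passed the filter on low signals, a signal above 40.8 in at least 3 of 18 arrays. Each gene is represented by its brightest probe set, and the second probe sets of Eln, Fbn1, Fbln1 and Lox are given beside it.

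The study measured RNA in lungs of Wistar rats, a laboratory strain, at 3 stages. These were fetal day 19 (FD19) and fetal day 22 (FD22), with fetuses delivered by Caesarean section, and newborns examined 5 h after vaginal birth (P1). Each stage had 3 litters and 1 lysate per litter. Each of the 9 lysates was divided into polysomal RNA, taken from gradient fractions with more than 7 ribosomes on an mRNA, and total RNA, and each preparation was hybridised to 1 Affymetrix array. The 6 groups were therefore FD19, FD22 and P1 polysomal RNA and FD19, FD22 and P1 total RNA, with 3 arrays in each. The labels name no mutation and no drug treatment, and how many animals were pooled in a lysate is not given in the sources used here. Stage and mode of delivery cannot be told apart between P1 and the fetal stages.

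Elastic fibres let the lung recoil after each breath. They consist of a core of crosslinked elastin on a scaffold of fibrillin microfibrils, and fibulins bring elastin, the scaffold and the lysyl oxidases together so that tropoelastin is deposited and crosslinked in place. In the developing lung the fibres are laid down by mesenchymal cells, in the tips of the septa among other sites, while fibronectin forms a separate fibrillar network that cells bind through integrins and that guides the assembly of other matrix proteins.

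Signals are array intensities scaled by the authors to nearly the same trimmed mean on all arrays (149.6 to 149.7), and the array medians ranged from 51.6 to 73.5. Differences were fitted with limma to log2(signal + 5.5) and carry their standard error (SE, n = 3 arrays in a group), and a call means an adjusted p under 0.05 over all 21675 probe sets tested. The polysomal over total ratio is relative to the average mRNA of the same lysate, since both fractions were scaled alike, and only 3 arrays per group limit the precision. Sftpc, a surfactant gene that marks lung epithelium, was bright on all 18 arrays (3836 to 9139). The liver gene Alb stood at 4892 in polysomal and 5662 in total RNA of FD22 lysate 2 and at no more than 147 on the other arrays. Without that lysate the calls of Lox at P1 against FD22 and of Mfap4 in total RNA ended, as given beside them, and no other call of the 9 genes did. A signal of a whole-lung sample cannot tell fewer cells of a type from less RNA per cell.

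Between FD19 and P1 the genes of elastin and of fibronectin rose in both fractions, while Fbn2 and Fbln1 fell in total RNA. The 9 genes were chosen with earlier results of these data known. Their counts and medians beside those of all probe sets are therefore descriptions and no independent evidence. At P1 against FD19, 5 of the 9 genes rose in polysomal RNA (Fn1, Eln, Fbln5, Loxl1 and Lox) and 1 fell (Fbn2), where 13.1% of all probe sets were called higher and 15.8% lower. In total RNA 3 rose (Fbln5, Fn1 and Eln) and 2 fell (Fbn2 and Fbln1), where 12.4% and 13.7% of all probe sets were called higher and lower. The median log2 difference of the 9 genes was 0.37 in polysomal and 0.20 in total RNA, and that of all probe sets was -0.05 and -0.03.

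More of the 9 genes were called between FD19 and FD22 than across birth. In polysomal RNA 3 genes rose at FD22 against FD19 (Fn1, Fbln5 and Eln) and 0 fell, where 8.22% and 7.7% of all probe sets were called higher and lower. With Fbn2 and Mfap4, 5 of the 9 had an unadjusted limma p under 0.05, where 28.4% of all probe sets did. In total RNA 3 rose (Fbln5, Fn1 and Mfap4) and 1 fell (Fbn2), against 8.42% and 7.82% of all probe sets. Across birth, P1 against FD22, the lysyl oxidase gene Lox was called higher in both fractions and no other gene of the 9 was called. The background there was 3.79% higher and 4.55% lower in polysomal RNA, and 2.21% higher and 1.76% lower in total RNA.

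**Figure D1:**
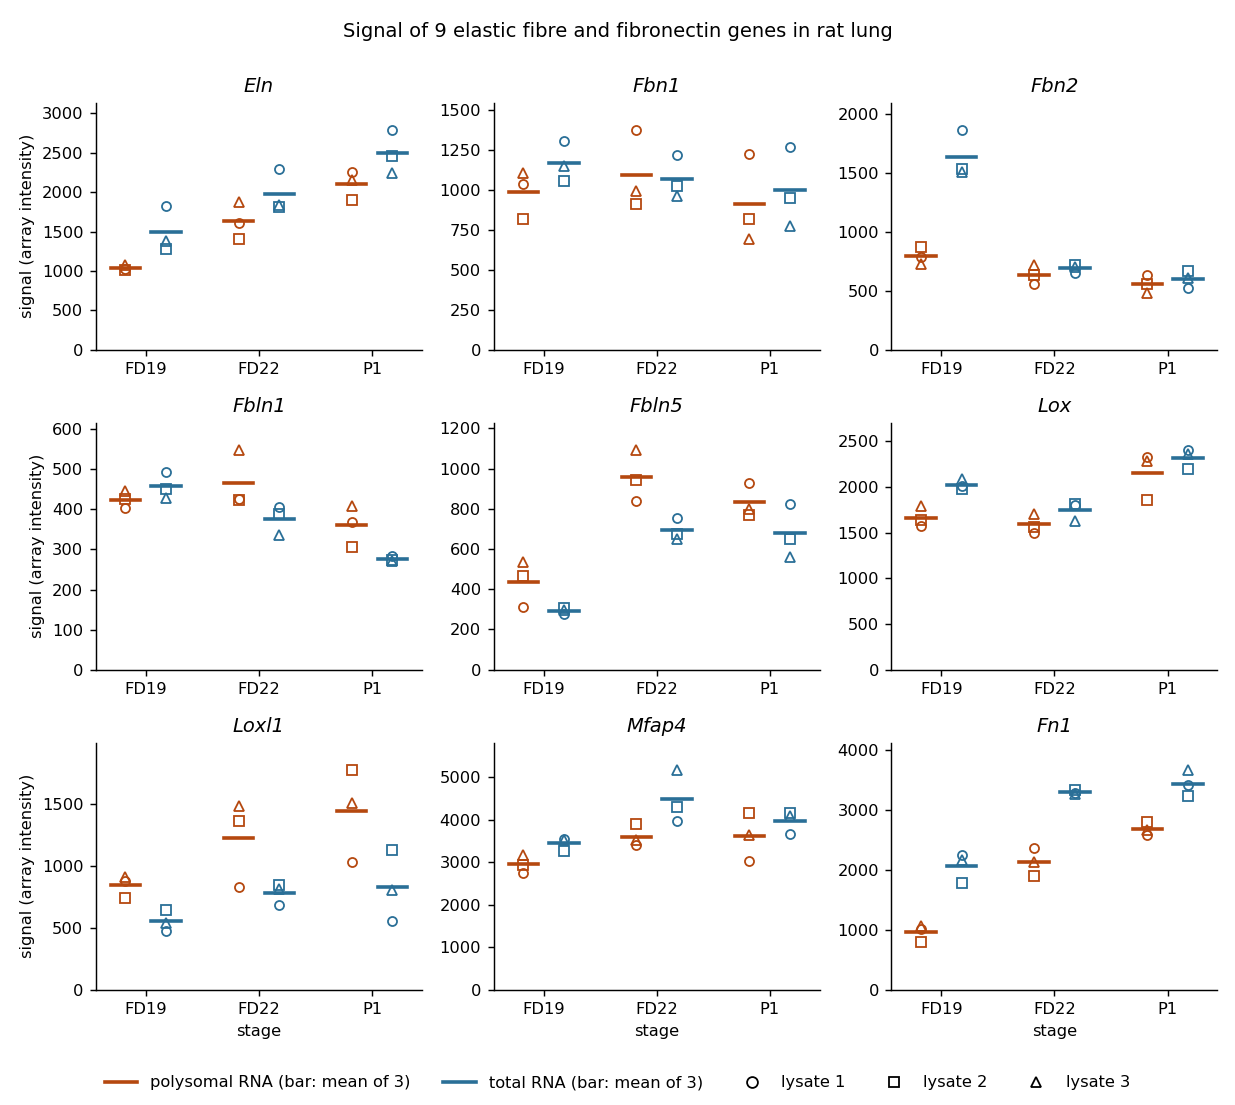
Signal (array intensity, y axis from 0) of the 9 genes by stage (x axis), one panel per gene, with polysomal RNA left of total RNA, each array as a symbol for its lysate and the mean of 3 arrays as a bar. Eln and Fn1 have higher means at FD22 and P1 than at FD19 in both fractions, whereas the total RNA of Fbn2 is high at FD19 (1506 to 1864) and lies between 519 and 716 at the other stages.

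Eln encodes tropoelastin, the soluble subunit that is crosslinked into the elastic core. In polysomal RNA its signals in lysates 1, 2 and 3 were 1029.9, 1012 and 1080.0 at FD19, 1612, 1402 and 1876 at FD22, and 2255, 1902 and 2159 at P1. In total RNA they were 1831, 1279 and 1378 at FD19, 2291, 1818 and 1831 at FD22, and 2796, 2458 and 2239 at P1. In polysomal RNA all arrays of P1 and of FD22 lay above all arrays of FD19, P1 and FD22 did not overlap, and in total RNA P1 overlapped with FD22. Eln rose at P1 against FD19 by 1.01 ± 0.14 (adjusted p = 2.98e-05) in polysomal RNA, or 2.01-fold, and by 0.75 ± 0.14 (adjusted p = 0.000607) in total RNA, or 1.68-fold. At FD22 against FD19 it rose by 0.63 ± 0.14 (adjusted p = 0.00448) in polysomal RNA, while the difference in total RNA was 0.41 ± 0.14 (adjusted p = 0.0556). At P1 against FD22 the differences were 0.37 ± 0.14 in polysomal and 0.34 ± 0.14 in total RNA and were not called. The second, dim probe set of Eln (1395753_at, mean signal 150.6 over 18 arrays) showed no such rise, with 0.11 ± 0.46 (adjusted p = 0.895) in polysomal and -0.02 ± 0.46 (adjusted p = 0.985) in total RNA at P1 against FD19.

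The microfibril genes did not move together. Fbn1 encodes fibrillin-1, the main fibrillin of mature microfibrils. Its polysomal signals were 1037, 818 and 1106 at FD19, 1379, 914 and 992 at FD22, and 1226, 815 and 692 at P1. Its total signals were 1305, 1055 and 1149.8 at FD19, 1217, 1028 and 962 at FD22, and 1268, 949 and 774 at P1. The arrays of all 3 stages overlapped in both fractions, and lysate 1 was the highest of its stage in 5 of the 6 groups. No stage difference of the brighter probe set was called, with P1 against FD19 at -0.15 ± 0.21 (adjusted p = 0.662) in polysomal and -0.25 ± 0.21 (adjusted p = 0.418) in total RNA. The second probe set of Fbn1 (1387351_at) was lower in total RNA at P1, by 0.42 ± 0.11 (adjusted p = 0.0439) against FD22 and by 0.37 ± 0.11 (adjusted p = 0.0228) against FD19.

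Fbn2 encodes fibrillin-2, the fibrillin that prevails in embryonic tissue. Its polysomal signals were 781, 867 and 722 at FD19, 553, 629.7 and 719 at FD22, and 629, 552 and 477 at P1. In total RNA the arrays read 1864, 1526 and 1506 at FD19, 649, 716 and 701 at FD22, and 519, 668 and 608 at P1. The 3 total RNA arrays of FD19 stood far above the other 15 arrays of both fractions, while the polysomal arrays of FD19 lay only a little above those of the later stages. In total RNA Fbn2 fell at FD22 against FD19 by 1.23 ± 0.14 (adjusted p = 8.26e-06), to 0.426 of the FD19 signal, and at P1 against FD19 by 1.44 ± 0.14 (adjusted p = 4.74e-07). In polysomal RNA it fell at P1 against FD19 by 0.52 ± 0.14 (adjusted p = 0.00849), and the difference at FD22 against FD19 was -0.32 ± 0.14 (adjusted p = 0.135). The polysomal call ended without FD19 replicate 2 (adjusted p = 0.0583) or P1 replicate 3 (adjusted p = 0.0627). P1 and FD22 differed by -0.20 ± 0.14 in polysomal and -0.21 ± 0.14 in total RNA, which was not called.

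Summed markers of cartilage and of smooth muscle, cells that make microfibrils or elastin, were brightest at FD19 in total RNA. The summed total RNA signal of 4 of 4 listed cartilage genes ranged from 756 to 1744 at FD19, from 164 to 314 at FD22 and from 239 to 358 at P1, and that of 6 of 6 smooth muscle genes from 3317 to 4527, from 2041 to 2380 and from 2277 to 3212. In polysomal RNA the cartilage sums were 414 to 1072, 202 to 289 and 237 to 355, and the smooth muscle sums 3401 to 3780, 1892 to 2092 and 2685 to 3596. Not all markers of a list moved with its sum. In total RNA at P1 against FD19 the cartilage genes Col2a1 and Col9a1 fell while Acan and Matn1 were not called, and of the smooth muscle genes Myh11, Tagln, Actg2 and Cnn1 fell while Des rose.

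Summed markers of leukocytes, epithelium and endothelium were higher after FD19 in total RNA, as Eln, Fn1 and Fbln5 were. In polysomal RNA the same held, except that the leukocyte sums of FD19 and FD22 overlapped. At FD19, FD22 and P1 the 4 leukocyte genes summed to 2544 to 5033, 4929 to 6251 and 5991 to 8666 in polysomal RNA, and to 1826 to 2074, 6039 to 9302 and 6377 to 7701 in total RNA. The 8 epithelial genes summed to 13622 to 18440.4, 21994 to 25239 and 24467 to 32944 in polysomal RNA, and to 13880.2 to 15381, 23641 to 28547 and 25088 to 27489 in total RNA. In total RNA at P1 against FD19 the epithelial genes Sftpa1, Ager, Sftpb and Scgb1a1 rose and Nkx2-1 fell, while Sftpc, Epcam and Cdh1 were not called. For the 3 of 4 endothelial genes measured the sums were 1594 to 2075, 2549.5 to 3349 and 2728 to 3172 in polysomal RNA, and 1554 to 1622, 2443 to 2685 and 2311 to 2541 in total RNA. In total RNA at P1 against FD19 Tek and Pecam1 rose and Kdr was not called, and all 4 leukocyte genes rose. Lyz2 was the brightest leukocyte gene, at a mean of 6119 in total RNA at FD22. The 6 fibroblast and mesenchyme genes stood at 6983 to 7611, 8205 to 10039 and 7829 to 9941 in polysomal RNA, where both later stages lay above FD19. Of these genes only Tcf21 was called in polysomal RNA at P1 against FD19, as higher. In total RNA the fibroblast sums overlapped between FD19 and FD22, at 11567 to 11970, 10989 to 12043 and 10688 to 11247. The part of any of these cells in the fall of Fbn2, the rise of Eln, Fn1 and Fbln5, or another difference given here was not tested.

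Mfap4, a microfibril-associated protein that binds elastin and fibrillin, had polysomal signals of 2745, 2946 and 3168 at FD19, 3400.2, 3893 and 3529 at FD22, and 3041, 4167 and 3652 at P1. The total RNA arrays gave 3560.3, 3269.7 and 3528 at FD19, 3983, 4315 and 5187 at FD22, and 3665, 4153 and 4099 at P1. In total RNA every FD22 array exceeded every FD19 array, and P1 overlapped with FD22. Mfap4 rose at FD22 against FD19 in total RNA by 0.37 ± 0.12 (adjusted p = 0.0377), a call that ended when any 1 replicate except FD22 replicate 1 was left out (adjusted p up to 0.195). In polysomal RNA the same difference was 0.29 ± 0.12 (adjusted p = 0.11), and the fit that takes equal replicate numbers as pairs called it (adjusted p = 0.0472, with 21.3% of all probe sets called). At P1 against FD19 the differences were 0.28 ± 0.12 in polysomal and 0.20 ± 0.12 in total RNA, neither of them called. The polysomal value was called with median centring (0.34, adjusted p = 0.0144) and without P1 replicate 1 (0.40, adjusted p = 0.019), and the total value with quantile normalization (0.27, adjusted p = 0.014).

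The 2 fibulins moved in opposite directions in total RNA. Fbln5 encodes fibulin-5, which binds tropoelastin, cell integrins and Loxl1 and which mice need for normal elastic fibres in the lung. Its polysomal signals were 313, 467 and 534 at FD19, 842, 944 and 1095 at FD22, and 929.8, 769.5 and 802 at P1. Total RNA signals were 276, 306 and 295 at FD19, 752, 677 and 652 at FD22, and 824, 650.1 and 559 at P1. No array of FD22 or P1 overlapped with an array of FD19 in the same fraction. Fbln5 rose at FD22 against FD19 by 1.15 ± 0.17 (adjusted p = 0.000172) in polysomal RNA and by 1.23 ± 0.17 (adjusted p = 7.66e-05) in total RNA, 2.22-fold and 2.34-fold. At P1 against FD19 it was higher by 0.95 ± 0.17 (adjusted p = 0.000396) in polysomal and by 1.18 ± 0.17 (adjusted p = 4.92e-05) in total RNA. Between P1 and FD22 the differences were -0.20 ± 0.17 and -0.05 ± 0.17 in the same order and were not called.

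Fbln1, whose product fibulin-1 binds elastin and fibronectin, had polysomal signals of 403, 426 and 445 at FD19, 427, 422 and 549.6 at FD22, and 369, 307 and 409 at P1. Its total signals were 493, 452 and 429.8 at FD19, 407, 388 and 336 at FD22, and 285, 274 and 272 at P1. In total RNA the 3 arrays of P1 lay close together and below all arrays of FD22 and FD19. In polysomal RNA FD19 overlapped with both later stages, while all arrays of P1 lay below those of FD22. That polysomal difference, -0.36 ± 0.14 (adjusted p = 0.115), was not called. Fbln1 fell in total RNA at P1 against FD19 by 0.71 ± 0.14 (adjusted p = 0.0006), to 0.61 of the FD19 signal. In polysomal RNA the same difference was -0.24 ± 0.14 (adjusted p = 0.216). The second probe set (1385452_at), with a mean signal of 70.4 and only 14 arrays above the filter, differed by -0.58 ± 0.34 (adjusted p = 0.233) in total RNA.

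The crosslinking enzymes Lox and Loxl1 oxidise lysines of tropoelastin and collagen so that the chains can be joined. Lox had polysomal signals of 1568, 1635 and 1789.9 at FD19, 1501, 1560.0 and 1709 at FD22, and 2333, 1862 and 2279.8 at P1. In total RNA the arrays read 2009.8, 1983 and 2089 at FD19, 1802, 1818 and 1631 at FD22, and 2410.4, 2193 and 2361 at P1. Every P1 array exceeded every FD22 array of the same fraction, and FD22 and FD19 overlapped in polysomal RNA. Lox rose at P1 against FD22 by 0.43 ± 0.10 (adjusted p = 0.0137) in polysomal and by 0.41 ± 0.10 (adjusted p = 0.0323) in total RNA, 1.35-fold and 1.33-fold, and at P1 against FD19 by 0.37 ± 0.10 (adjusted p = 0.0112) in polysomal RNA. Without FD22 replicate 2, the lysate with liver genes, the first 2 calls ended (adjusted p = 0.0577 and 0.0774). Each of the 3 calls also ended without some single replicates, with adjusted p up to 0.0712, 0.112 and 0.0629, and on the arrays numbered 2 and 3 alone (0.182, 0.154 and 0.165). The second probe set (1368172_a_at) rose in polysomal RNA at P1 against FD19 by 0.40 ± 0.12 (adjusted p = 0.0214) and differed by 0.30 ± 0.12 and 0.20 ± 0.12 in polysomal and total RNA at P1 against FD22, which was not called.

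Loxl1, the lysyl oxidase that binds fibulin-5, had polysomal signals of 883, 743 and 912 at FD19, 831, 1366 and 1488 at FD22, and 1036, 1782 and 1513 at P1. The total RNA arrays gave 473, 646 and 538 at FD19, 682, 849 and 818 at FD22, and 557, 1133 and 808 at P1. The lysates of P1 spread widely, with lysate 1 the lowest and lysate 2 the highest in both fractions, and P1 overlapped with FD22. Loxl1 rose at P1 against FD19 in polysomal RNA by 0.74 ± 0.24 (adjusted p = 0.0277). Leaving out 1 replicate ended the call in every case but that of P1 replicate 1 (adjusted p up to 0.11). The total RNA difference was 0.54 ± 0.24 (adjusted p = 0.113), and with equal replicate numbers taken as pairs it was called (adjusted p = 0.0235, with 31.9% of all probe sets called), as was the polysomal difference at FD22 against FD19 (adjusted p = 0.0487).

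Upstream sequence is shown for Fbln5 and Loxl1, the 2 genes of the 9 that were called higher in polysomal than in total RNA at any stage. RefSeq promoter windows (build GRCr8) matched 4 of the 9 genes, and those of Fbn1 and Fbn2 are not shown because the annotated start there falls on an ATG. Each sequence gives the 250 bases before the annotated start, with capitals at any match, on either strand, to the TATA box (TATAAA), the GC box (GGGCGG), the cyclic AMP response element (TGACGTCA) or the AP-1 element (TGANTCA). The Fbln5 window lies at chr6:126742707-126742956 and the Loxl1 window at chr8:67612225-67612474, both on the minus strand.
Fbln5: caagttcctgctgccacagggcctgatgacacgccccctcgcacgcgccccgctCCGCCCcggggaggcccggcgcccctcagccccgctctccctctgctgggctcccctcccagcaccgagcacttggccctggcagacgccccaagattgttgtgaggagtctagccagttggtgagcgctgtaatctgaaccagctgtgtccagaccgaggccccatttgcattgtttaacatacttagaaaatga
Loxl1: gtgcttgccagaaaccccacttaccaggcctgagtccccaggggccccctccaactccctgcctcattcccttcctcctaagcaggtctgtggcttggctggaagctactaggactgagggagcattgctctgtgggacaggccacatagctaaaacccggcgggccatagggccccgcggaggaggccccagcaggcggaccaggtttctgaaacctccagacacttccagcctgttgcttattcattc
The Fbln5 window held 1 match, a GC box on the opposite strand beginning at base -196, and the Loxl1 window held none of the 4 motifs. Of 33469 RefSeq promoter windows of the same length, 12.9% held a TATA box, 30.5% a GC box, 1.6% a cyclic AMP response element and 6.3% an AP-1 element.

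Fn1 encodes fibronectin. Its polysomal signals were 1013, 793 and 1071 at FD19, 2359.7, 1903 and 2130.1 at FD22, and 2588, 2803 and 2666 at P1. Total RNA signals were 2245, 1788 and 2166 at FD19, 3287, 3342 and 3261 at FD22, and 3414, 3228 and 3678 at P1. In polysomal RNA the 3 stages did not overlap at all, and in total RNA FD22 and P1 both lay above FD19 and overlapped with each other. Fn1 rose at P1 against FD19 by 1.49 ± 0.12 (adjusted p = 8.48e-08) in polysomal RNA, or 2.81-fold, and by 0.74 ± 0.12 (adjusted p = 0.000133) in total RNA, or 1.67-fold. At FD22 against FD19 it rose by 1.15 ± 0.12 (adjusted p = 5.62e-06) in polysomal RNA and by 0.68 ± 0.12 (adjusted p = 0.000572) in total RNA. Across birth the difference was 0.34 ± 0.12 (adjusted p = 0.0913) in polysomal and 0.06 ± 0.12 (adjusted p = 0.872) in total RNA. Liver also makes fibronectin, and of 5 listed liver genes the 3 measured (Alb, Ttr and Serpina1) were all high in FD22 lysate 2. Without FD22 replicate 2 the rise of Fn1 at FD22 against FD19 was 1.23 (adjusted p = 2.02e-05) in polysomal and 0.67 (adjusted p = 0.00292) in total RNA.

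**Figure D2:**
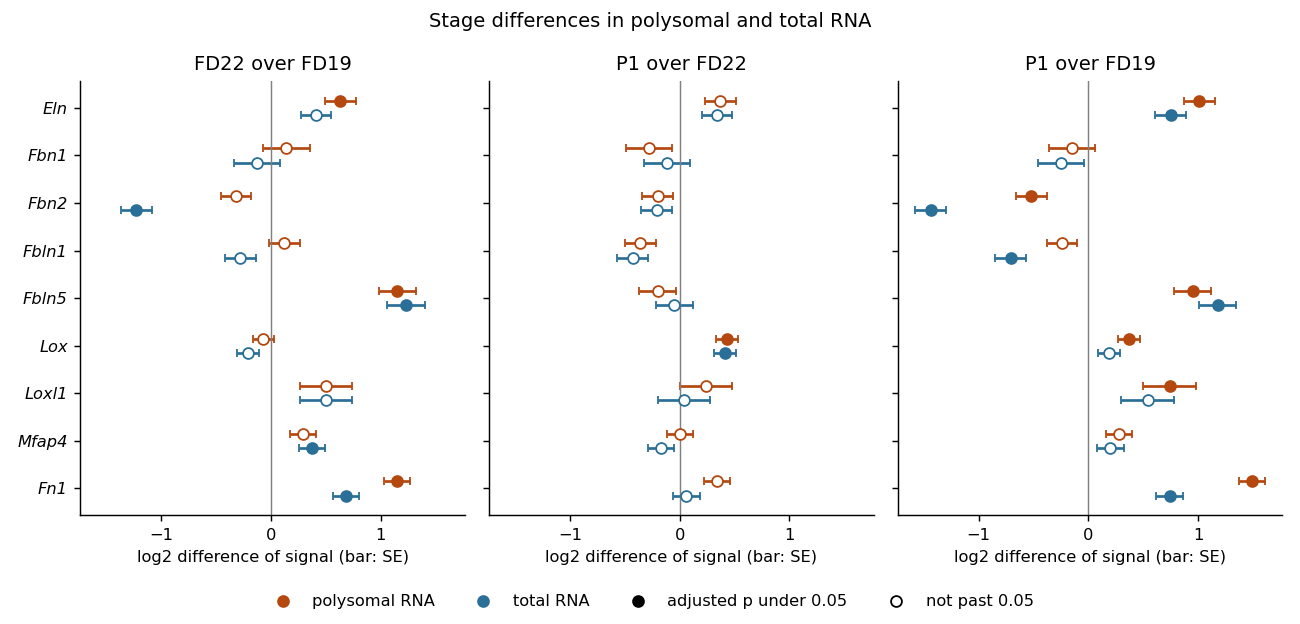
Log2 difference of signal (x axis, with SE as bars) for the 9 genes (rows) in the 3 stage comparisons (panels), polysomal RNA above total RNA, with filled points where the adjusted p was under 0.05. Fn1 and Fbln5 stand furthest to the right at FD22 over FD19, Fbn2 in total RNA furthest to the left (-1.23 and -1.44), and at P1 over FD22 only the points of Lox are filled.

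The polysomal over total comparison asks how much of an mRNA is on large polysomes compared with the average mRNA. At FD19 the ratio was lower for Fn1, Fbn2 and Eln and higher for Fbln5, 3 and 1 of 9 genes, where 10.9% of all probe sets were called lower and 9.97% higher. At FD22 it was lower for Fn1 alone and higher for 0 genes, where 8.6% of all probe sets were called lower and 6.76% higher. There 5 of the 9 had an unadjusted limma p under 0.05 in either direction, where 31% of all probe sets did. At P1 it was lower for Fn1 and higher for Loxl1, against 10.4% and 8.12%. The median of the 9 genes was -0.25, -0.13 and -0.11 at FD19, FD22 and P1, and that of all probe sets was -0.07, -0.08 and -0.09. After median centring of the arrays the values for all probe sets were 0.097, 0.15 and 0.11, so a ratio near 0 has no settled sign.

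The ratio of Fn1 was below 0 in all 9 lysates. The log2 ratios of lysates 1, 2 and 3 were -1.14, -1.17 and -1.01 at FD19, -0.48, -0.81 and -0.61 at FD22, and -0.40, -0.20 and -0.46 at P1. The fitted ratio was -1.11 ± 0.12 (adjusted p = 6.6e-06) at FD19, -0.63 ± 0.12 (adjusted p = 0.00166) at FD22 and -0.36 ± 0.12 (adjusted p = 0.0459) at P1. The FD22 value was -0.55 (adjusted p = 0.0309) without FD22 replicate 2, and the P1 call ended without any 1 of the P1 replicates (adjusted p up to 0.244). Under quantile normalization the ratio was -0.32 at FD22 (adjusted p = 0.094) and -0.17 at P1 (adjusted p = 0.405).

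The ratio of Fbn2 was low at FD19 alone. Its log2 ratios were -1.25, -0.81 and -1.05 at FD19, -0.23, -0.18 and 0.04 at FD22, and 0.28, -0.27 and -0.35 at P1, with lysate 1 of P1 above 0 and apart from the other 2 lysates of that stage. The fitted ratio was -1.04 ± 0.14 (adjusted p = 5.69e-05) at FD19, so the polysomal signal was 0.487 of the total signal, -0.13 ± 0.14 (adjusted p = 0.568) at FD22 and -0.11 ± 0.14 (adjusted p = 0.607) at P1. At the last 2 stages the polysomal and total arrays overlapped.

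Eln had log2 ratios of -0.83, -0.34 and -0.35 at FD19, -0.51, -0.37 and 0.04 at FD22, and -0.31, -0.37 and -0.05 at P1. At FD19 the fitted value was -0.50 ± 0.14 (adjusted p = 0.0178), and the call ended without lysate 1 (-0.34, adjusted p = 0.169), without lysate 3 (-0.58, adjusted p = 0.0629) and with median centring (-0.34, adjusted p = 0.174). The dim second Eln probe set was lower in polysomal RNA in every lysate, at -0.97, -0.94 and -0.84 (SE 0.46) at FD19, FD22 and P1. It was not called without lysate pairs (adjusted p = 0.138, 0.17 and 0.211). The fit with the lysate as a block called it at each stage (adjusted p up to 0.000761), with 6787, 5653 and 6058 of 21675 probe sets called. The ratios of Lox were -0.36, -0.28 and -0.22 at FD19, -0.26, -0.22 and 0.07 at FD22, and -0.05, -0.24 and -0.05 at P1, and at FD19 the fit without lysate pairs gave -0.29 ± 0.10 (adjusted p = 0.0573) and the fit with the lysate as a block, which called 31.3% of all probe sets, an adjusted p of 0.0348. The second Lox probe set had the same sign at FD19, -0.55 ± 0.12 (adjusted p = 0.00456).

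Fbln5 and Loxl1 were above 0 in all 9 lysates. Fbln5 had log2 ratios of 0.18, 0.60 and 0.84 at FD19, 0.16, 0.48 and 0.74 at FD22, and 0.17, 0.24 and 0.52 at P1, with lysate 1 lowest and lysate 3 highest at each stage. Its fitted ratio was 0.54 ± 0.17 (adjusted p = 0.0342) at FD19, which was not called without lysate 2 or 3 (adjusted p up to 0.263), and 0.46 ± 0.17 (adjusted p = 0.0787) at FD22, where the lysate block gave an adjusted p of 0.0285. Loxl1 had log2 ratios of 0.89, 0.20 and 0.75 at FD19, 0.28, 0.68 and 0.86 at FD22, and 0.89, 0.65 and 0.90 at P1. Its fitted ratio was 0.61 ± 0.24 (adjusted p = 0.0791), 0.61 ± 0.24 (adjusted p = 0.0953) and 0.81 ± 0.24 (adjusted p = 0.0255) at FD19, FD22 and P1, and with the lysate block the FD19 and FD22 values were called too (adjusted p = 0.00489 and 0.0066). The P1 call ended with quantile normalization (0.70, adjusted p = 0.0698) and without P1 replicate 3 (0.77, adjusted p = 0.141). Although the P1 arrays of both fractions overlapped, since the total signal of lysate 2 exceeded the polysomal signal of lysate 1, the polysomal signal exceeded the total signal within each lysate.

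With the lysate block 4 of the 9 genes were called at FD22, Fn1, Fbln5, Loxl1 and Mfap4, where 26.1% of all probe sets were called in either direction. Mfap4 had log2 ratios of -0.37, -0.15 and -0.16 at FD19, -0.23, -0.15 and -0.55 at FD22, and -0.27, 0.00 and -0.17 at P1, and its block p at FD22 was 0.0345 after adjustment, for a difference of -0.31. Its sign depended on the scaling, since quantile normalization gave 0.35 at FD19 (adjusted p = 0.00449) and 0.31 at FD22 (adjusted p = 0.0131). For Fbn1 and Fbln1 the probe sets disagreed. The brighter probe set of Fbn1 had ratios of -0.33, -0.36 and -0.06 at FD19, 0.18, -0.17 and 0.04 at FD22, and -0.05, -0.22 and -0.16 at P1 and no call, while the second was lower in polysomal RNA at FD19 by 0.61 ± 0.11 (adjusted p = 0.00108) and at FD22 by 0.39 ± 0.11 (adjusted p = 0.0259). The brighter probe set of Fbln1 stood at 0.30 ± 0.14 at FD22 and 0.37 ± 0.14 at P1, uncalled. Median centring gave 0.53 (adjusted p = 0.0223) and 0.57 (adjusted p = 0.0143), which were called, so that at P1 it added Fbln1 and lost Fn1 and the count stayed at 2. The dim probe set of Fbln1 stood at -1.66 ± 0.34 (adjusted p = 0.00279) at FD22.

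**Figure D3:**
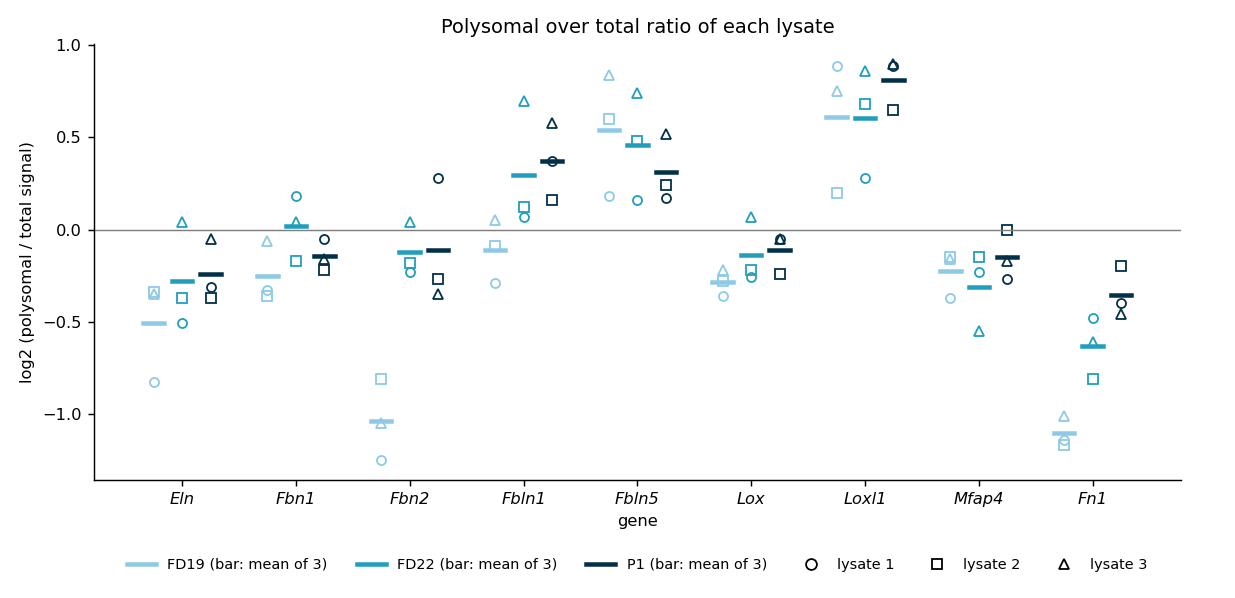
Log2 of polysomal over total signal (y axis) in each lysate (symbols) at FD19, FD22 and P1 (left to right within each gene, the bar being the mean of 3 lysates) for the 9 genes (x axis). Fbn2 and Fn1 lie near -1 at FD19 (-1.04 and -1.11) and closer to 0 at P1, while Fbln5 and Loxl1 stay above 0 throughout.

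The change of the ratio between stages tests directly whether the polysome share moved. The rise for Fbn2 and Fn1 was known when these genes were chosen, so its test is no independent evidence of it. For Fbn2 and Fn1 every P1 lysate exceeded every FD19 lysate, as did every FD22 lysate. The same held for the brighter probe set of Fbln1 and the second probe sets of Lox and Fbn1. How many of all probe sets were separated in this way was not counted. The change at P1 against FD19 was 0.92 ± 0.20 (adjusted p = 0.0741) for Fbn2 and 0.75 ± 0.17 (adjusted p = 0.0978) for Fn1. The fit that pairs the 2 arrays of a lysate gave the same sizes with smaller errors and called both, at 0.92 ± 0.18 (adjusted p = 0.0298) for Fbn2 and 0.75 ± 0.13 (adjusted p = 0.0204) for Fn1. That fit called 0.198% of all probe sets higher and 0.844% lower. The value for Fbn2 was 0.73 (adjusted p = 0.352, no block) without P1 replicate 1, the lysate whose ratio was above 0, and 0.62 (adjusted p = 0.533) on the arrays numbered 2 and 3. For Fn1 the same 2 settings gave 0.77 (adjusted p = 0.267) and 0.76 (adjusted p = 0.455).

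The higher ratio at P1 had different components in the 2 genes. For Fbn2 the total RNA fell by 1.44 ± 0.14 (adjusted p = 4.74e-07) at P1 against FD19 and the polysomal RNA by 0.52 ± 0.14 (adjusted p = 0.00849). For Fn1 the polysomal RNA rose by 1.49 ± 0.12 and the total RNA by 0.74 ± 0.12. For Fbn2 the ratio differed by 0.91 ± 0.20 (adjusted p = 0.987) at FD22 against FD19 and by 0.01 ± 0.20 at P1 against FD22. For Fn1 the same 2 comparisons gave 0.47 ± 0.17 (adjusted p = 0.999) and 0.28 ± 0.17.

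Without the block limma called 0 of the 9 genes for a change of the ratio in any of the 3 comparisons. At P1 against FD19, 3 of 9 (Fbn2, Fn1 and Fbln1) had an unadjusted p under 0.05, where 9.98% of all probe sets did, and 0.115% of all were called. At FD22 against FD19 the same 3 genes had one, where 3.6% of all probe sets did and 0 of 21675 were called. Fbn2 and Fn1 were chosen with the rise of their ratio known, so an excess of these counts over the shares is no evidence. Of the other genes only Fbln1 had such a p in these comparisons. At P1 against FD22 0 of the 9 had an unadjusted p under 0.05, where 4.35% of all did and 0.0138% were called. The ratio of Fbln1 differed by 0.48 ± 0.19 (adjusted p = 0.391) at P1 against FD19. The other 6 genes ranged from -0.23 ± 0.25 (Fbln5) to 0.26 ± 0.20 (Eln) in that comparison, and the second Lox probe set stood at 0.54 ± 0.18 (adjusted p = 0.267).

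Genes that work with these 9 were read from 4 lists with 33 genes, of which 28 were measured. These lists too were chosen with earlier results of these data known, so their counts beside the shares of all probe sets are descriptions only. In polysomal RNA at P1 against FD19, 14 of the 28 rose and 2 fell, where 13.1% of all probe sets were called higher and 15.8% lower, and the median was 0.51 against -0.05 over all. In total RNA 8 rose and 5 fell, where the shares were 12.4% and 13.7%, and the median was 0.24 against -0.03. At P1 against FD22, 2 rose in polysomal RNA (Itgb1 and Tnc) and 0 fell, where 3.79% of all probe sets were called higher and 4.55% lower. In total RNA limma called 0, where 2.21% of all probe sets were called higher and 1.76% lower. There 4 of 28 had an unadjusted p under 0.05, where 17% of all probe sets did. For a change of the ratio 0 of 28 were called in any comparison, and 6, 3 and 0 had an unadjusted p under 0.05 at P1 against FD19, FD22 against FD19 and P1 against FD22. The shares of all probe sets with such a p were 9.98%, 3.6% and 4.35% in the same order. At P1 against FD19 their ratio changes ranged from -0.40 to 0.98 (median 0.21). Those of the 3 crosslinkers, among them Loxl3 with signals near the filter, ranged from 0.49 to 0.98, beside 0.92 for Fbn2 and 0.75 for Fn1.

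Of 11 measured microfibril and elastic fibre partners, 5 rose and 2 fell in polysomal RNA at P1 against FD19, beside the same 13.1% higher and 15.8% lower of all probe sets. Mfap5, a small glycoprotein of the microfibril, rose by 1.07 ± 0.18 (adjusted p = 0.000135) in polysomal and by 0.95 ± 0.18 (adjusted p = 0.000447) in total RNA. Fbln2, a fibulin that also binds fibronectin and stands on 2 of the lists, rose by 0.94 ± 0.23 (adjusted p = 0.00401) in polysomal RNA. Efemp2, the fibulin-4 gene whose product brings Lox to tropoelastin, fell by 1.11 ± 0.13 (adjusted p = 2.85e-06) in polysomal and by 0.97 ± 0.13 (adjusted p = 1.36e-05) in total RNA. Mfap2, the other small microfibril glycoprotein, fell by 0.60 ± 0.16 (adjusted p = 0.00793) and 0.58 ± 0.16 (adjusted p = 0.00997) in the same fractions. Both Mfap2 and Mfap5 had a higher polysomal than total signal at all 3 stages, with ratios of 0.78, 0.66 and 0.77 for Mfap2 and 0.77, 1.06 and 0.89 for Mfap5 at FD19, FD22 and P1 (adjusted p up to 0.00851).

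Among 3 measured crosslinkers, the transglutaminase gene Tgm2, whose product joins fibronectin and other matrix proteins, rose at P1 against FD19 by 1.68 ± 0.13 (adjusted p = 6.13e-08) in polysomal RNA and by 1.19 ± 0.13 (adjusted p = 1.93e-06) in total RNA. The lysyl oxidase gene Loxl3 was called lower in total RNA (adjusted p = 0.0359), but its signals, 11.6 to 33.3 at P1 against 44.2 to 70.6 at FD19, lay below the filter of 40.8 at P1 and just above it at FD19, so no size is given. Of 9 fibronectin receptors 5 rose and 0 fell in polysomal RNA, against 13.1% and 15.8% of all probe sets, with 5 of 9 at an unadjusted limma p under 0.05, against 38.5% of all. They were led by the syndecan gene Sdc4 (0.69 ± 0.12, adjusted p = 0.000276) and the integrin genes Itgb1 (0.53), Itga8 (0.58) and Itgb6 (0.51). Of 6 other fibronectin-binding matrix genes 4 rose in polysomal RNA, where 13.1% of all probe sets did, led by the tenascin gene Tnc at 1.46 ± 0.21 (adjusted p = 2.9e-05), followed by Fbln2, Postn (0.68) and Sparc (0.54). The versican gene Vcan fell in total RNA by 0.55 ± 0.20 (adjusted p = 0.0451).

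**Figure D4:**
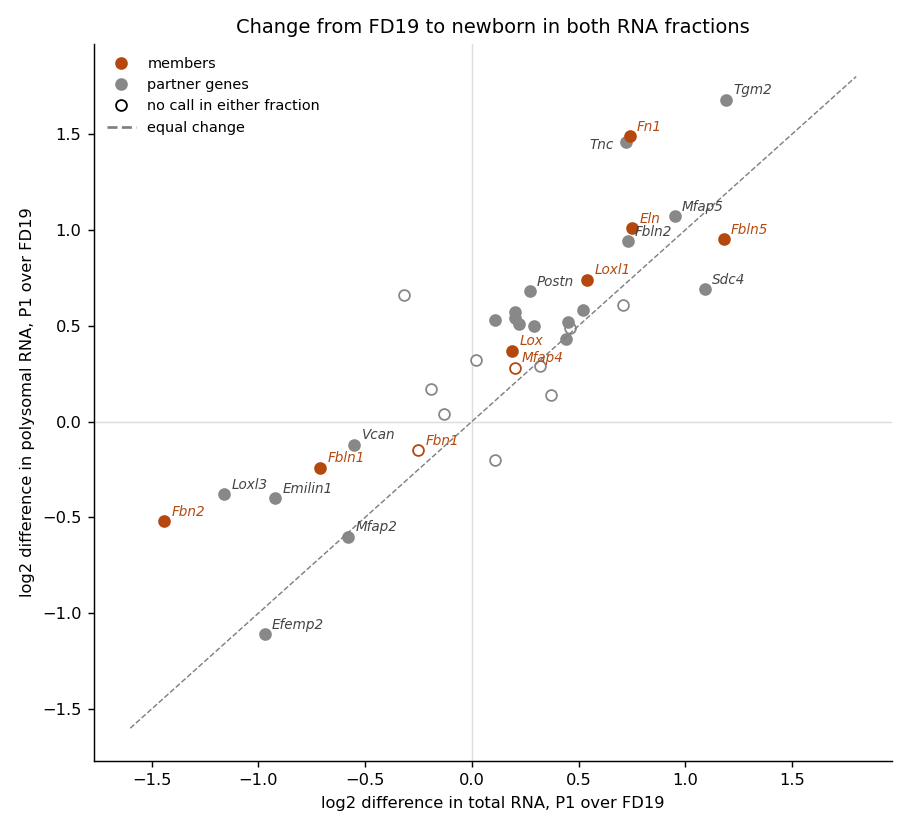
Log2 difference at P1 over FD19 in total RNA (x axis) and polysomal RNA (y axis) for the 9 genes (orange) and 28 partner, receptor and crosslinking genes (grey), open where neither fraction was called, with a dashed line of equal change. Fn1, Tnc and Tgm2 lie above the line on the right, Fbn2 lies above it on the left, and grey genes with both values between 0 and 0.6 are left without a name.

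The 9 genes differed in the profile they followed over the 18 arrays, which share lysates, so the correlations are given as descriptions. Eln and Fn1 ran most alike among the 9 (Pearson r = 0.90 on the log2 scale), and Fbn2 and Fbln5 most opposite (r = -0.83). Over 11590 genes the profiles nearest to Eln were those of Ecm1 (r = 0.963) and Ppl (0.943). Nearest to Fbn2 were Ipo11 (0.936) and Dnmt1 (0.934), nearest to Fbln5 were Wif1 (0.988) and Sult1a1 (0.967), and nearest to Fn1 were Jup (0.955) and Rab3gap2 (0.940). The closest profiles were weaker for Lox (Krt8, 0.916), Loxl1 (Fam234a, 0.922), Fbln1 (Gmpr2, 0.898), Mfap4 (Adipor2, 0.895) and Fbn1 (Rbm25, 0.829).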

How the data were processed

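Total and large-polysome RNA of 9 rat lung lysates was measured on 18 Affymetrix Rat Genome 230 2.0 arrays. The deposited values are signal intensity per probe set on a linear scale, made by the authors with GCOS 1.4 per the submitters' processing notes; the signal algorithm is not given in the sources used here. Each array had been scaled to the same trimmed mean, so a change in the amount of all mRNA between fractions or stages is not visible.

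Of 31099 probe sets, 57 controls were left out. Probe sets with an intensity above 40.8, the 40th percentile, in at least 3 arrays were kept (21675), and log2(intensity + 5.5), with the 10th percentile as the constant, was the input of limma 3.58.1 under R 4.3.3 (6 group means, 12 residual degrees of freedom, empirical Bayes with a variance trend). P-values were adjusted by Benjamini-Hochberg over all kept probe sets, two-sided, and 0.05 was the threshold. The fit was tested on simulated data. Stage comparisons were made in each fraction, polysomal against total RNA at each stage, and the change of that ratio between stages. Figures were drawn with Python 3.11.15 and matplotlib 3.10.9. The labels number the replicates, and the series' design text states independent litters, 3 per stage.

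Polysomal and total RNA of a lysate are pairs by design, and both arrays of a lysate deviated together in all 9 (correlation of deviations, r = 0.186 to 0.488). Equal replicate numbers also had positive r between stages, many of them small, except number 3 of total FD22 and FD19 (r = -0.031). The values were 0.498, 0.287 and 0.226 for polysomal FD22 and FD19, and 0.313, 0.119 and 0.134 for total P1 and FD19. In polysomal RNA r was 0.388, 0.162 and 0.094 for P1 and FD22, and 0.344, 0.055 and 0.165 for P1 and FD19. In total RNA it was 0.42, 0.092 and 0.094 for P1 and FD22, and 0.371, 0.221 and -0.031 for FD22 and FD19. Number 1 had the highest r of each pair of stages, and pairing by number rests on the data alone. Fits with the lysate or the number as a block, other constants, filters and normalizations, other probe sets and leaving out replicates were alternatives. Members and their partner lists were chosen with earlier results of these data known. Text names the 9 genes, at most 4 called partners per list and comparison by lowest p, and the nearest profiles by Pearson correlation over 18 arrays. Probe sets were named through the platform annotation, and 4 of the 9 genes matched a RefSeq promoter.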

Additional observations from a re-analysis of the deposited data

Results flagged for a closer look

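The polysomal over total ratio of Fbn2 was higher at P1 than at FD19 by 0.92 on the log2 scale, and that of Fn1 by 0.75. The difference passed the threshold when the 2 arrays of each lysate were paired (limma with the lysate as a block, adjusted p = 0.0298 and 0.0204) and did not without the pairing (limma, adjusted p = 0.0741 and 0.0978). For Fn1 the ratio was called lower at both stages, and for Fbn2 it was called at FD19 and not at P1 (-0.11, adjusted p = 0.607). In 3 of 3 P1 lysates the ratio exceeded that of any FD19 lysate for both genes, as it did for Fbln1 and the second probe sets of Lox and Fbn1. Fbn2 and Fn1 were chosen with this rise known, so the test repeats the choice and is no independent evidence. No explanation was tested.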

How the results depend on the processing

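Of 1557 refits of single genes under the alternatives, 1455 kept their side of the threshold without a called value changing sign (59 of them changed sign with neither value called), 59 lost a call, 38 gained one and 5 turned. Those that turned were Eln in total RNA at P1 against FD19 on its other probe set (-0.02), the FD22 ratios of Fbn1 (-0.39) and Fbln1 (-1.66) on their other probe sets, and the Mfap4 ratios at FD19 (0.35) and FD22 (0.31) under quantile normalization. In total RNA at P1 against FD22 the 1 called gene became 0 with no filter, quantile normalization, no variance trend, or the arrays numbered 2 and 3 only, and 0 to 1 with a replicate left out. In polysomal RNA the counts were 5 in place of 3 at FD22 against FD19 with the number as a block. That setting called 21.3% of all probe sets, where the main fit called 8.22% higher and 7.7% lower. At P1 against FD22 the polysomal counts were 0 in place of 1 with quantile normalization or arrays 2 and 3, 3 with the number block, and 0 to 1 with a replicate left out. The number block there called 2731 of 21675 probe sets, where the main fit called 821 higher and 986 lower. At P1 against FD19, leaving out a replicate gave 3 to 6 in place of 6. For the ratio at FD19 it gave 2 to 3 in place of 4. For the ratio at FD22 the 1 called gene became 4 with median centring, 3 with arrays 2 and 3, and 4 with the lysate block. These settings called 4500, 3272 and 5653 of 21675 probe sets in that order, where the main fit called 1465 higher and 1864 lower. For the ratio at P1 the 2 became 1 with no filter, 0 with quantile normalization, 1 with no variance trend, 1 with arrays 2 and 3, and 0 to 1 with a replicate left out. For the change of the ratio at P1 against FD19, 0 became 2 with the lysate block, Fbn2 at 0.92 and Fn1 at 0.75. That block called 0.198% of all probe sets higher and 0.844% lower. Leaving out a replicate gave changes of 0.73 to 1.04 for Fbn2 and 0.68 to 0.81 for Fn1. Fewer arrays explain part of the losses by construction; the cause of the others was not tested. Signals near the filter, as on the second probe set of Fbln1 and for Loxl3, limit what can be read from them. The second probe set of Eln, dim at a mean signal of 150.6, lay above the filter on 18 arrays, and its stage differences had a wide SE (0.46). Having 3 lysates per stage limits the rest.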
